A study of Mus musculus with 3 samples.

Results

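Immunoglobulin-type cell adhesion molecules are membrane proteins whose outer part is built from immunoglobulin domains. A set of 10 of their genes was followed here, chosen by gene symbol: Vcam1, Icam1, Icam2, Mcam, Bcam, Alcam, Thy1, Ncam1, L1cam and Lsamp. Each of the 10 had 1 probe set with a single gene symbol, so all 10 were measured, out of 18688 named genes in the series. The values come from mesangial cells, the contractile cells between the capillaries of the glomerulus. They were sorted by fluorescence from adult male CD-1 mice of the line Tg(Meis1-EGFP)FO156Gsat, in which a bacterial artificial chromosome expresses a green fluorescent protein under Meis1 regulatory sequence. The 3 samples formed 1 group, each from 1 kidney, without pooling, and the labels name no treatment and no second population, so the sort marks Meis1 reporter activity. The labelled source is both glomerular and extraglomerular mesangium.

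The family works at cell surfaces in several ways. VCAM1 and the ICAM proteins are counter-receptors for integrins on leukocytes, and cytokines acting through NF-kB are known to induce VCAM1 and ICAM1. MCAM and BCAM bind laminins and are found on vessel wall cells. ALCAM, NCAM1, L1CAM and the IgLON protein LSAMP bind their own kind or related proteins on neighbouring cells, and NCAM1, L1CAM and LSAMP are best known from the nervous system. THY1 is a small protein held in the membrane by a lipid anchor, and in the rat an antibody to it is the basis of a classical model of mesangial injury.

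Values are deposited log2 signals of a probe set, given as the mean ± SD over 3 samples, and the SD may be partly technical, since separate mice are not stated. Some genes given with an SD, among them Gata3 and Rela, had identical values on 2 arrays. Such an SD rests on 1 differing array. A gene was called above the silent-gene threshold when it exceeded, on all 3 arrays, the 95th percentile of probe sets for keratin-associated proteins and for odorant, pheromone and trace amine receptors (7.48, 7.46 and 7.41 on arrays 1, 2 and 3). Of the 1250 silent genes themselves 4.72% passed it, a share set by the percentile used, and 0.96% passed the threshold raised by 1. A gene less than 1 above the threshold is called near background below, which names its distance only. Probe sets differ in affinity, so the levels of different genes are not ranked. In RNA from sorted cells, fewer cells of a type and less RNA per cell cannot be told apart. Of the mesangial markers 10 of 10 lay more than 1 above the threshold, where 32.7% of all named genes did. Among them were the integrin gene Itga8 at 12.96 ± 0.01, the growth factor receptor gene Pdgfrb at 12.03 ± 0.06 and the transcription factor gene Gata3 at 12.24 ± 0.06. The marker list was chosen with earlier results of these data known, so its count is no independent check of the cells.

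Of the 10 adhesion genes, 8 (80.0%) lay above the threshold, where 58.0% of all named genes did. The 2 that did not were Ncam1 and L1cam. More than 1 above it on all 3 arrays were 5 of the 10 (50.0%), namely Vcam1, Icam2, Mcam, Bcam and Alcam, where 32.7% of all named genes were. Icam1, Thy1 and Lsamp lay between the threshold and the raised threshold on at least 2 arrays. The median of the members' means was 8.92 and that of all named genes 7.80. With 10 genes chosen by name and 1 group of samples, these shares are a description and were not tested.

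**Figure D1:**
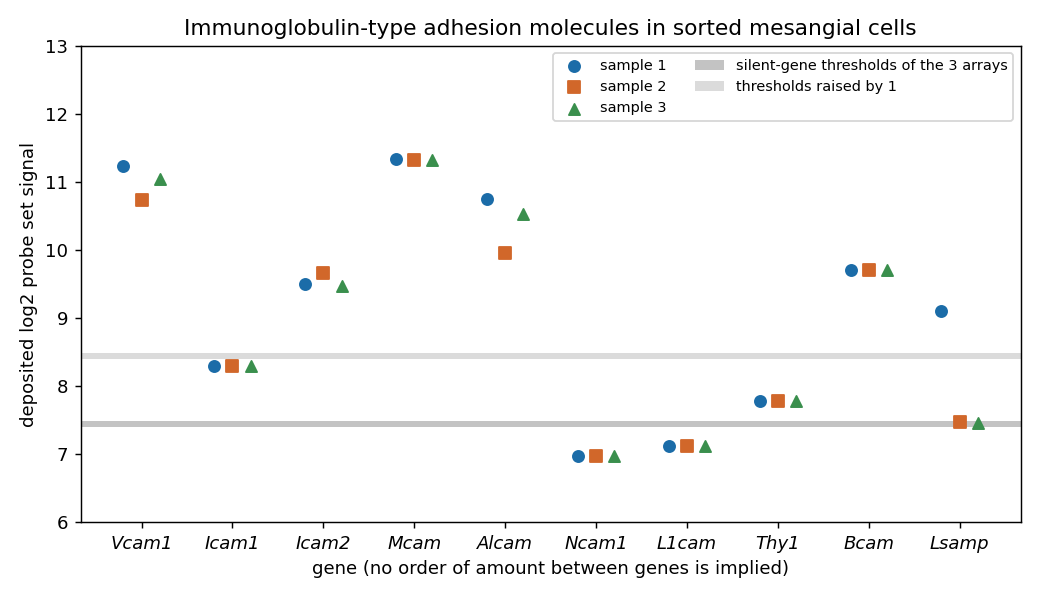
Deposited log2 probe set signal of each adhesion gene (horizontal axis) in samples 1 (circles), 2 (squares) and 3 (triangles), with the range of the 3 silent-gene thresholds as a dark band and the same raised by 1 as a light band. Vcam1, Icam2, Mcam, Alcam and Bcam sit above the light band in every sample, Ncam1 and L1cam below the dark band, and Lsamp above the light band in sample 1 alone.

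Among the leukocyte counter-receptors, Vcam1 and Icam2 lay far above the threshold and Icam1 less than 1 above it. Vcam1 had 11.23 in sample 1, 10.74 in sample 2 and 11.04 in sample 3, a mean of 11.003 ± 0.248, and its smallest distance above the threshold was 3.28. Sample 2 was the lowest and sample 1 the highest, and all 3 were well clear of the threshold. Icam2, which is constitutive on resting endothelium, had 9.51, 9.67 and 9.48 in samples 1, 2 and 3, a mean of 9.55 ± 0.10. Here sample 2 was the highest, by 0.16 over sample 1 and by 0.19 over sample 3. Icam1 had the same value, 8.30, on all 3 arrays, between 0.82 and 0.89 above the thresholds.

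The genes beside Icam1 on the chromosome were not above the threshold. In the RefSeq gene table of GRCm38.p6, Icam1, Icam4 and Icam5 are direct neighbours with 0 protein-coding genes between them. Icam4, an adhesion molecule of red cells, had 7.04 and Icam5, an adhesion molecule of forebrain neurons, 7.17, each identical in the 3 samples and below the threshold. Of the 4 measured ICAM genes, Icam1 and Icam2 were thus above the threshold and Icam2 alone more than 1 above it.

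Both laminin-binding members lay well above the threshold. Mcam, also known as CD146 and found on endothelium, smooth muscle and pericytes, had 11.34, 11.33 and 11.33 in samples 1, 2 and 3, a mean of 11.33 ± 0.01. Its range over the samples, 0.0108, was the smallest among the members whose values were not identical. Bcam, the Lutheran blood group protein and a receptor for the laminin alpha 5 chain, had 9.71 in every sample, at least 2.22 above the threshold, so its 3 values give no measure of spread. Both genes passed the raised threshold in all samples. Mcam and Thy1 lie near each other, with 4 protein-coding genes between them.

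Alcam lay well above the threshold and Thy1 close to it. Alcam, which binds itself and the T cell protein CD6, had 10.75 in sample 1, 9.96 in sample 2 and 10.52 in sample 3, a mean of 10.41 ± 0.41. As for Vcam1, sample 2 was the lowest, and still 2.49 above the threshold. Thy1 had 7.79 in every sample, between 0.31 and 0.38 above the thresholds, and so lay near background.

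The members best known from neurons were at or below the threshold except for Lsamp in 1 sample. Ncam1, for the neural cell adhesion molecule, had 6.98 and L1cam, which guides growing axons and in the kidney is known from the collecting duct, 7.13, each identical in the 3 samples. They lay at least 0.43 and 0.28 below the thresholds. Lsamp, the limbic system-associated membrane protein, had 9.10 in sample 1 and 7.47 and 7.46 in samples 2 and 3, a mean of 8.01 ± 0.94. Sample 1 was 1.62 above its threshold, while samples 2 and 3 exceeded theirs by 0.01 and 0.05. The signal in sample 1 was 3.12 times that in sample 3. Without sample 1 the mean was 7.47, so the level above background rested on that sample.

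Promoter sequence is shown for an inducible member near the threshold, Icam1, and for Mcam and Alcam, which lay well above it. The sequences are RefSeq's for GRCm38.p6 and give the 250 bases before the annotated start, 5′ to 3′ on the gene's strand. Icam1 is chr9:21015690-21015939 on the plus strand, Mcam chr9:44134408-44134657 on the plus strand and Alcam chr16:52453082-52453331 on the minus strand. Capitals mark matches, on either strand, to GGAAATTCC (an NF-kB type site), TATAAA (the TATA box), GGGCGG (the GC box), CCAAT (the CCAAT box) and TGACGTCA (the cAMP response element).
Icam1: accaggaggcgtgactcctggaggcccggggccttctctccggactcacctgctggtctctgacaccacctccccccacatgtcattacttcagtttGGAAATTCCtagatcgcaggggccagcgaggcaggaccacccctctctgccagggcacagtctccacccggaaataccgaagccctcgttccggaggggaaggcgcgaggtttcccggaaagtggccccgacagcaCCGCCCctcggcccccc
Mcam: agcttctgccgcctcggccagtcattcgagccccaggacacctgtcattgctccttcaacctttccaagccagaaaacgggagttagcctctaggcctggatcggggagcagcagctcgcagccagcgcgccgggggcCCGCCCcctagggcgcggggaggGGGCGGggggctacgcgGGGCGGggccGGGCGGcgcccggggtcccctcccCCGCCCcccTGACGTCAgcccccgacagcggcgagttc
Alcam: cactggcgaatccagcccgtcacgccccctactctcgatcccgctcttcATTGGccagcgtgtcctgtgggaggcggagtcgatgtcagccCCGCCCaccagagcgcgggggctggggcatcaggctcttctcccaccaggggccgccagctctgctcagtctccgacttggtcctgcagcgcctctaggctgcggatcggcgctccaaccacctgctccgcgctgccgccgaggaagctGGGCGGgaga

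The motifs were searched in the full RefSeq windows of 300 bases, 250 before and 50 after the start, which were given for 6 of the 10 members in 8 windows. GGAAATTCC was in the Icam1 window alone among them, starting 153 bases before the start, and in 0.317% of all 32851 windows. TATAAA was also in the Icam1 window alone, 14 bases into the transcript as annotated and so outside the stretch printed above, and in 13.6% of all windows. TGACGTCA was in the Mcam window alone, 29 bases before the start, and in 1.79% of all windows. GGGCGG was in windows of Icam1, Mcam, Alcam, Bcam and L1cam, with 5 matches before the start of Mcam, and in 35.7% of all windows. CCAAT was in windows of Alcam, L1cam and Lsamp and in 37.4% of all windows. In the 250 bases printed, the GC content was 65.2% for Icam1, 73.6% for Mcam and 69.2% for Alcam, against a median of 52.4% over all windows. The motifs were chosen after the sequences had been seen, none of the matches overlapped another, and a match says only that these letters occur there.

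The spread between samples divided the members. Of the 10, Icam1, Ncam1, L1cam, Thy1 and Bcam (5) had 1 identical value on all 3 arrays, as did 51.1% of named genes, so an SD of 0 here is not a measure of error. Among the 10830 genes above the threshold 39.3% had an SD of 0. These are included in the median SD of 0.02 and in the shares below. Of the 10830 genes, 5 had a larger SD than Lsamp, 149 a larger one than Alcam and 543 a larger one than Vcam1. Vcam1 and Alcam were both at least 0.25 lower in sample 2 than in either other sample, a pattern shared by 1.98% of the genes above the threshold. Vcam1 was 0.49 below sample 1 and 0.30 below sample 3 there, and Alcam 0.79 and 0.57. The other 6 members above the threshold did not show it. Lsamp was at least 1 higher in sample 1 than in either other sample, as were 0.0462% of the genes above the threshold, 5 in all. The others were Npn2, Taf1a, Pakap and AI506816, and these limits of 0.25 and 1 were set after the values had been seen.

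**Figure D2:**
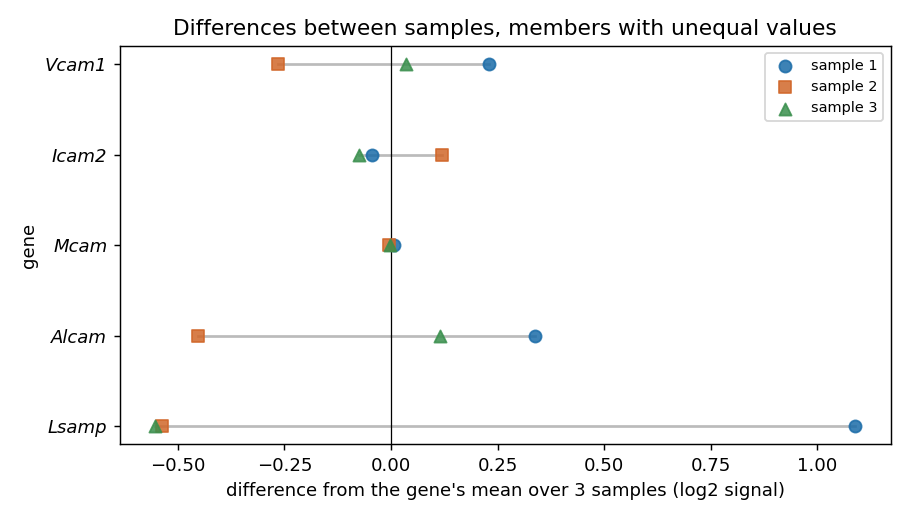
Difference of each sample from the gene's own mean (horizontal axis, log2 signal) for the 5 members whose values differed between arrays, with samples 1, 2 and 3 as circles, squares and triangles and a grey line over the range. Sample 2 lies lowest for Vcam1 and Alcam and highest for Icam2, and sample 1 of Lsamp lies apart from its other samples.

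Markers of other cells were read beside these differences. Of 4 parietal epithelial markers, 2 passed the threshold and none the raised one. Their mean level was 7.75, 7.50 and 7.71 in samples 1, 2 and 3, and 1 of the 4, the tight junction gene Cldn1, was lowest in sample 2 (7.69, 6.67 and 7.68), as Vcam1 and Alcam were. Pax8 had 7.56 in each sample, Krt8 8.41 ± 0.01, and Krt18 7.36, 7.36 and 7.17, lowest in sample 3. Between samples 1 and 2 only Cldn1 of the 4 differed, and it was below the threshold in sample 2. Among the other marker lists, 3 of 12 endothelial, 2 of 5 smooth muscle, 1 of 6 measured podocyte, 1 of 7 leukocyte and 2 of 10 mesangial markers were also lowest in sample 2. Examples, chosen after their values were seen, were the glomerular endothelial gene Ehd3 (10.53, 10.14 and 10.58) and the smooth muscle genes Acta2 (10.64, 10.50 and 10.98) and Myh11 (10.44, 10.19 and 10.70). The mesangial list had mean levels of 11.71, 11.73 and 11.70 in samples 1, 2 and 3. Its 2 genes lowest in sample 2 were Ptn (13.19, 12.96 and 13.14) and Des (10.62, 10.42 and 10.60). Cldn1 and Ehd3 were at least 0.25 lower in sample 2 than in either other sample, and Acta2, Myh11, Ptn and Des were not. The share of all named genes that were lowest in sample 2 was not counted, so the marker counts have no background beside them. The part of any of these cells in the pattern of Vcam1 and Alcam was not tested.

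For Lsamp, Ncam1 and L1cam the relevant other cells are neurons, Schwann cells and the collecting duct. None of 7 neuronal markers passed the threshold, with Syn1 at 7.21, Syt1 at 7.26 and Rbfox3 at 6.94, and their mean level was 6.66 in sample 1 and 6.65 in each of the other samples. Of 3 measured Schwann cell markers 2 passed by less than 1, Sox10 at 7.80 and Mbp at 7.65, with list means of 7.41, 7.43 and 7.43. In these lists 6 of the 7 neuronal and 2 of the 3 Schwann cell markers had identical values on all arrays, and the part of such cells in the level of Lsamp in sample 1 was not tested. Of 5 collecting duct markers 4 passed and none passed the raised threshold, with Aqp2 at 8.09, Aqp3 at 7.64 and Scnn1g at 6.03. The list means were 7.42, 7.63 and 7.59 in samples 1, 2 and 3. Calb1 had 7.72, 8.66 and 8.49 there and was more than 1 above the threshold on arrays 2 and 3 only.

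For Icam2, Mcam and Bcam it is the endothelium. Of 12 endothelial markers 11 passed the threshold and 7 the raised one. The 7 were Tek at 10.78, Emcn at 10.38, Ehd3 at 10.42, Plvap at 9.35, Ptprb at 9.28, Flt1 at 8.82 and Egfl7 at 8.91. Pecam1 at 7.61 ± 0.05, Cdh5 at 7.66 ± 0.05 and Kdr at 7.57 were within 1 of the threshold. The list means were 8.74, 8.73 and 8.83 in samples 1, 2 and 3. Smooth muscle markers, which Mcam accompanies in vessel walls, passed the raised threshold in 4 of 5 cases, among them Acta2 at 10.71 ± 0.25, Myh11 at 10.44 ± 0.25 and Rgs5 at 11.68 ± 0.06. The part of endothelial or vessel wall RNA in the levels of Icam2, Mcam and Bcam was not tested.

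For Thy1 and Icam1, leukocytes, T cells and fibroblasts were read. Of 7 leukocyte markers 2 passed, Cd68 at 7.85 ± 0.07 and Cx3cr1 at 8.03, and none passed the raised threshold. Among those that did not pass were the pan-leukocyte gene Ptprc at 5.95, the integrin gene Itgb2 at 7.02 and Csf1r at 6.60. Of 4 measured T cell markers 1 passed, Cd3e at 7.78, and Cd3g at 6.15 and Cd4 at 6.94 did not. Of 4 fibroblast markers 3 passed and 2 passed the raised threshold, with Pdgfra at 11.16 ± 0.13, Col1a1 at 8.59 and Lum at 5.33. Of 6 measured podocyte markers 4 passed and 1 the raised threshold, with Nphs1 at 7.39 ± 0.06, Podxl at 7.63 and Synpo at 8.26 ± 0.16. The 1 past the raised threshold was Wt1 at 10.15 ± 0.08. Of 4 proximal tubule markers 2 passed and none the raised threshold, with Slc34a1 at 8.15 ± 0.16, Lrp2 at 6.79 and Slc5a2 at 7.81.

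Beside the members, the other genes of the neural families were mostly not above the threshold. In the L1 family 0 of 4 genes passed the threshold (L1cam, Chl1, Nrcam and Nfasc), in the NCAM family 0 of 2 and among the contactins, their relatives on axons, 0 of 6. Among the 5 IgLON genes Lsamp and Iglon5 passed, the latter at 8.08 in each sample, and Ntm, Opcml and Negr1 did not. Among the nectins and nectin-like molecules, which join cells at adherens junctions, 6 of 8 measured genes passed and 2 the raised threshold. Of the junctional adhesion molecules and their relatives 4 of 6 passed and 3 the raised threshold.

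The whole list of other immunoglobulin adhesion molecules had 39 measured genes. Of these 14 passed (35.9%) and 6 passed the raised threshold (15.4%), where 58.0% and 32.7% of all named genes did. Those 6 were Nectin3 at 9.52 ± 0.01, Cadm4 at 9.31 ± 0.17, the junctional molecule genes F11r at 9.59 ± 0.01, Jam3 at 8.66 ± 0.04 and Esam at 8.54 ± 0.04, and the nephrin relative Kirrel1 at 8.62. Madcam1, a gut homing receptor for lymphocytes that like VCAM1 binds alpha 4 integrins, had 6.82 and was below the threshold. Cadm2 was not analysed here. The difference between the share in this list and that of the members was not tested, since both lists were chosen by name.

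**Figure D3:**
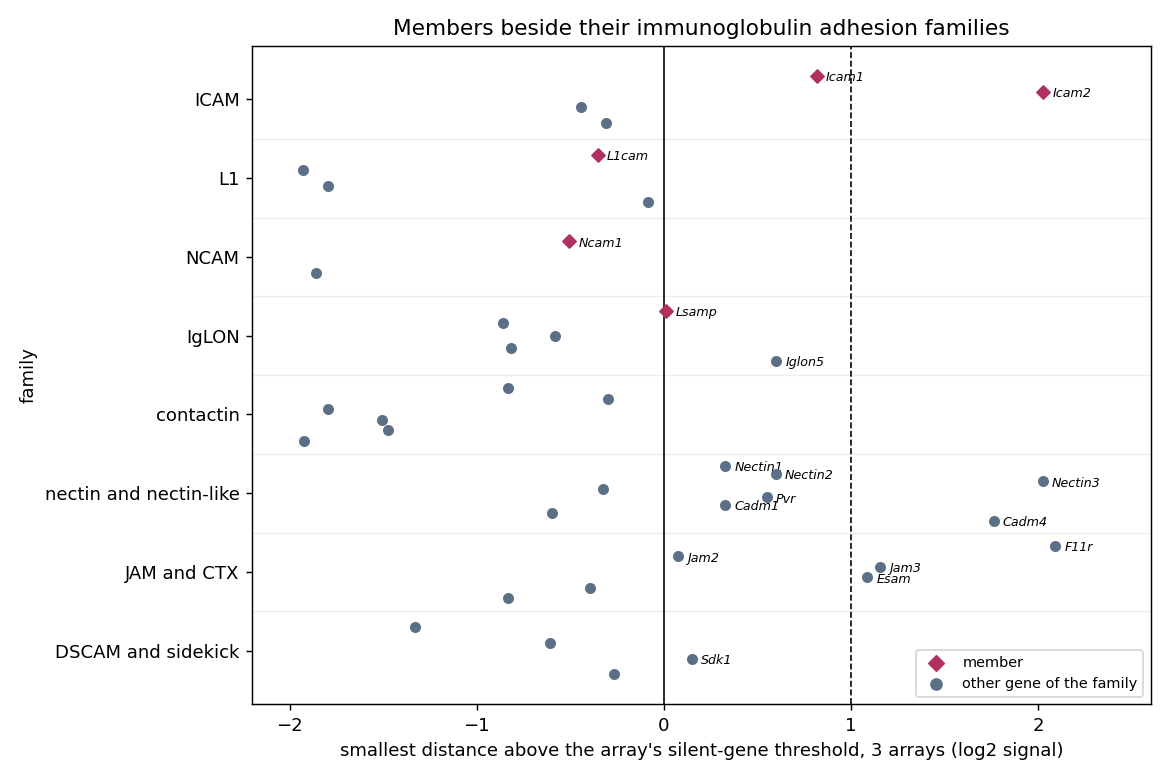
Smallest distance of each gene above its array's silent-gene threshold over the 3 arrays (horizontal axis, log2 signal), by family (rows), with members as diamonds and other genes as circles; the solid line is the threshold and the dashed line the threshold raised by 1. The L1, NCAM and contactin rows lie wholly to the left of the solid line, and Icam2 lies to the right of the dashed line.

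Some of the integrin genes whose products bind these molecules lay far above the threshold. Among genes of VCAM1 receptors, those of the pairs with Itgb1 were far above the threshold. The alpha 4 subunit Itga4 had 11.85 ± 0.04, the alpha 9 subunit Itga9 10.33 and their partner Itgb1 12.42 ± 0.04. The beta 7 subunit Itgb7, the other partner of alpha 4, had 7.34 and was below it. Genes of the ICAM receptors on leukocytes were all below it, with Itgal at 6.90, Itgam at 5.78, Itgax at 6.56, Itgad at 6.75 ± 0.15 and the shared beta subunit Itgb2 at 7.02. Of the vitronectin receptor, which binds THY1 and L1CAM, the alpha subunit Itgav had 10.43 ± 0.09 and the beta 3 subunit Itgb3 6.85, below the threshold. In all 4 of 11 integrin genes passed, and the same 4 passed the raised threshold.

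Genes of the laminin chains that MCAM and BCAM bind were above the threshold in 5 of 5 cases. Lama5, the chain BCAM binds, had 8.83, and Lama4, the chain of the laminin that MCAM binds, 7.95 ± 0.04, less than 1 above it. The beta and gamma chain genes Lamb1 at 10.14 ± 0.08, Lamb2 at 9.68 ± 0.11 and Lamc1 at 10.03 passed the raised threshold. Of 7 linkers between these proteins and the cytoskeleton 5 passed. Moesin (Msn) at 11.70, radixin (Rdx) at 10.61 and the actinins Actn4 at 11.80 ± 0.23 and Actn1 at 9.53 ± 0.20, which bind the tails of VCAM1 or the ICAM proteins, passed the raised threshold and ezrin (Ezr) at 7.92 the lower one. The ankyrin genes Ank2 at 7.12 and Ank3 at 6.49, whose products hold L1CAM, did not pass.

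Enzymes that modify the members were on both sides of the threshold. The polysialyltransferase genes that decorate NCAM1, St8sia2 at 7.15 and St8sia4 at 5.98 ± 0.12, were below the threshold, as Ncam1 itself was. The sheddase genes Adam10 at 9.28 ± 0.03, Adam17 at 9.73 ± 0.15, which releases VCAM1 from the surface, and Bace1 at 9.67 all passed the raised threshold.

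Of 10 measured genes of NF-kB and its cytokine input, 8 passed the threshold and 4 the raised one. The TNF receptor gene Tnfrsf1a had 9.78 ± 0.07, the NF-kB subunit gene Rela 9.06 ± 0.02, the inhibitor gene Nfkbia 8.89 ± 0.09 and the kinase gene Ikbkb 8.50. Within 1 of the threshold were Nfkb2 at 8.31, Ikbkg at 7.85, the feedback inhibitor gene Tnfaip3 at 7.63 and Il1b at 7.55. Relb passed on 2 arrays, with 7.49, 7.49 and 7.35, and Tnf at 6.96 on none. Nfkb1 and Il1r1 were not analysed here. The list means were 8.20, 8.21 and 8.17 in samples 1, 2 and 3, with 6 of the 10 genes identical on all arrays. Their part in the level of Vcam1 was not tested.

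**Figure D4:**
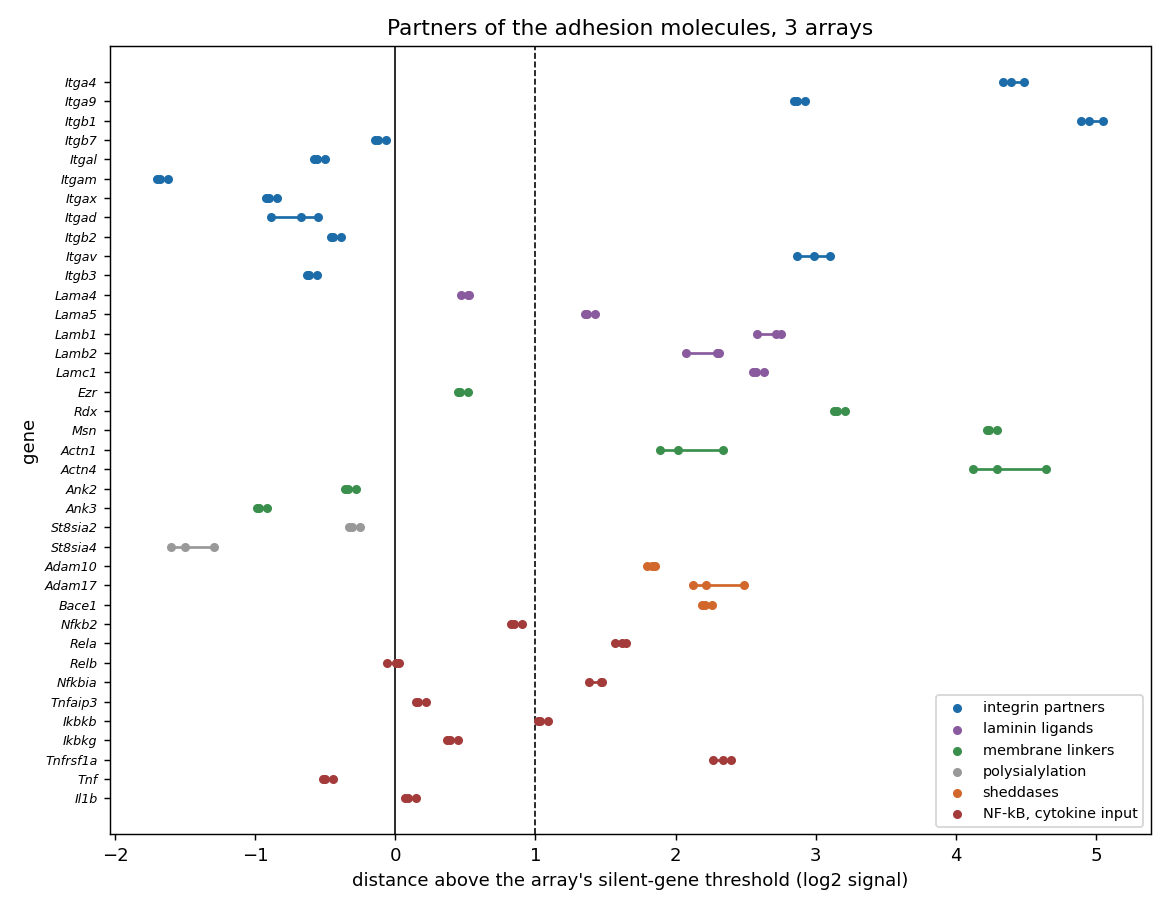
Distance above the array's silent-gene threshold (horizontal axis, log2 signal) on each of the 3 arrays (points, joined by a line over their range) for partner genes of the adhesion molecules, coloured by list; the solid line is the threshold and the dashed line the threshold raised by 1. Itga4, Itga9, Itgb1 and Itgav lie beyond the dashed line and the leukocyte integrin genes to the left of the solid line.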

How the data were processed

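Sorted mesangial cells of 3 samples were profiled on Affymetrix mouse gene arrays, 1 array per sample. The RNA was amplified with the WT-Ovation Pico system, per the labels. The authors deposited log2 probe set signals from Affymetrix Expression Console, a tool named in the submitters' processing notes. Its version and settings are not stated in the sources used here. Base 2 was read from the range (3.31 to 14.39), and centring is unknown. They were used as deposited; the array count limits the precision.

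Platform annotation gave 21789 of 35557 probe sets 1 symbol and 1621 several, and 12147 were not listed. Symbols were updated by Entrez number through RefSeq (GRCm38.p6), keeping per gene the probe set with the highest mean. The silent-gene threshold came from 1266 probe sets. Genes named were all members and partner genes, other immunoglobulin adhesion genes more than 1 above the threshold, and the first 3 measured of each marker list. Families were grouped afterwards, and genes outside this rule were named for their family, for standing beside a member or after their values were seen. Members and lists were chosen with earlier results of these data known. Calling was tested on simulated data whose expressed genes lay far above the silent ones, so that test does not cover calls near the threshold. Alternatives covered the threshold, probe set, normalization and samples (Python 3.11.15, pandas 2.3.3).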

Additional observations from a re-analysis of the deposited data

How the results depend on the processing

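The count of 8 members above the threshold was 5 at the 99th percentile of silent genes, where Icam1, Thy1 and Lsamp no longer passed and 35.3% of named genes did; it was 9, with L1cam added, at the 90th percentile, where 68.7% of named genes passed. With olfactory receptors alone, the mean of the arrays, other probe set rules, centring, quantile normalization or any 1 sample left out it was 8 each time. The count of 5 members more than 1 above the threshold was 6, with Icam1 added, at the 90th percentile (41.6% of named genes) and 5 under every other alternative run, the 99th percentile (17.2%) included. Quantile normalization moved no member's mean by more than 0.0041. Leaving out 1 sample moved a mean by at most 0.54, that of Lsamp without sample 1. Every member had 1 probe set, so the probe set alternatives could not move its value or its call. Centring shifts an array and its threshold alike, so it could not change a call either. Leaving out 1 sample kept the thresholds of the other arrays, so it could add a call but not remove one. No paired analysis was possible because the 3 samples form 1 group. No comparison between conditions exists, and 3 arrays with many identical values give little measure of error.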
